A study of Mus musculus with 20 samples.

Results

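The 10 genes described here encode mouse apolipoproteins of plasma lipoproteins and Mttp, the transfer protein that loads lipid onto the Apob protein. The apolipoprotein genes are Apoa1, Apoa2, Apoa4, Apoa5, Apob, Apoc1, Apoc2, Apoc3 and Apoe. All 10 genes were chosen by gene name from the 38924 genes of the deposited liver expression table. Each passed the filter on low values (FPKM above 0.5 in at least 5 libraries). FPKM is the number of sequenced fragments at a gene, scaled by the length of the gene and by the total of fragments assigned to genes. After 12 weeks on a choline deficient, methionine limited diet, the mRNA of Mttp, Apoa2, Apoa5, Apoc1 and Apoc3 was lower in both genotypes. The calls depended on scaling: after quantile normalization only Mttp and Apoa2 were called lower in each genotype. Apoe, the most abundant of the 10 by fragments, differed from its control level by less than the called fold in either genotype. After median of ratios scaling, described below, Apoe was called lower in both. Mttp was also lower in the mice labelled TSP-1 null on control diet, by less than the called fold, and its response to the diet was smaller in the mice labelled TSP-1 null than in WT mice.

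Livers came from 20 male mice, 5 in each of 4 groups, bought at 5 weeks of age and acclimated for 1 week. NDWT were C57BL/6J wild type (WT) mice on control chow and NDKO were mice labelled knockout for TSP-1 (thrombospondin-1, encoded by Thbs1) on the same chow. HFWT and HFKO were the corresponding WT and knockout mice given CDAHFD, an L-amino acid-defined high fat chow without choline and with limited methionine. The knockout line carries its allele in every cell type and was compared with C57BL/6J animals. Both lines were purchased from the same supplier, and the study describes its knockout as being on a C57BL/6J background. The description of the samples names the right medial lobe and the methods of the study the right lateral lobe.

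Hepatocytes export triglyceride as very low density lipoprotein (VLDL). Each VLDL particle is built on a single Apob protein, which receives lipid from the microsomal triglyceride transfer protein, encoded by Mttp, in the endoplasmic reticulum; the particle also needs a phosphatidylcholine surface, for which hepatocytes use choline. The smaller apolipoproteins exchange between particles: Apoa1 and Apoa2 are the main proteins of high density lipoprotein (HDL), the Apoc proteins and Apoa5 set how fast lipoprotein lipase clears triglyceride, and Apoe is a ligand for clearance receptors.

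Each library held 15641545 to 23276322 fragments assigned to genes, so that 3 fragments on a 1 kb gene were worth 0.129 to 0.192 FPKM, far below every value of the 10 genes. FPKM values are shares of a fixed total. The median of all 14524 tested genes lay 0.53 higher on the log2 scale in HFWT than in NDWT and 0.50 higher in HFKO than in NDKO, and log2 fold changes are read beside these medians. Thbs1, the targeted gene, did not follow the labels on control diet: it was at 0.058 to 0.326 FPKM in NDWT and 0.986 to 1.90 FPKM in the libraries labelled NDKO. On CDAHFD it was at 3.46 to 6.10 FPKM in HFWT and 3.05 to 4.40 FPKM in the libraries labelled HFKO. Which exons the allele removes was not examined, so the gene-level value does not check the deletion, and genotypes are given below as labelled.

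The tissue label was met by its markers. The 9 hepatocyte markers found in the table summed to between 32313 and 54188 FPKM over all libraries, and their range in HFWT (32313 to 45826) overlapped that in NDWT (38791 to 46495). Most of that sum is Alb, at 25050 ± 2900 FPKM in NDWT and 23000 ± 3555 FPKM in HFWT. Gene by gene, 0 of the 9 were called higher and 2 lower in WT mice (Serpina1a, -0.61 log2, and Fgb, -0.73), and 1 was called higher (Hp, 0.65) and 3 lower in null mice (Cps1, -0.85, Ass1, -0.67, and Cyp2e1, -0.78). Their median log2 fold change lay 0.68 below that of all genes in WT and 0.93 below it in null mice, and their part in the results below was not tested. Markers of several other cell types were higher on CDAHFD. The sum of 12 macrophage markers was 260 to 344 FPKM in NDWT and 1351 to 1856 FPKM in HFWT. Of these 12, 8 were called higher and 1 lower. The sum of 6 cholangiocyte markers went from 15.2 to 18.01 FPKM in NDWT up to 292 to 488 FPKM in HFWT, most of it Spp1 (12.0 to 15.2 and 268 to 446 FPKM), and that of 8 stellate cell and myofibroblast markers from 11.6 to 16.8 up to 119 to 256 FPKM. The same held between NDKO and HFKO, where the sums went from 237 to 394 up to 885 to 1932 FPKM for macrophage, from 12.4 to 15.6 up to 182 to 360 FPKM for cholangiocyte and from 13.7 to 15.4 up to 105 to 200 FPKM for stellate cell markers. The hepatocyte sum was at 43390 to 52804 FPKM in NDKO and 41760 to 54188 FPKM in HFKO. In WT mice 6 of 7 T and B cell markers and 3 of 3 tested neutrophil markers were called higher. For endothelial markers it was 1 of 6, with a median log2 fold change of 0.02, and 1 of 3 erythroid markers was called lower. Of all tested genes, 44.1% were called higher on CDAHFD and 4.62% lower in WT mice, and 41.9% and 4.00% in null mice. In whole liver, fewer hepatocytes and less mRNA per hepatocyte cannot be told apart, and the part of these other cells in the results below was not tested. Apob, Mttp and Apoa4 are also made in the gut. Of 5 markers of enterocytes, Sis and Alpi were at 0 in all 20 libraries and Lct was at most at 0.026 FPKM, but Fabp2 was at 57.1 to 138 FPKM over all groups, and Vil1 had a median of 0.016 FPKM in NDWT and 1.07 FPKM in HFWT.

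Genome positions are those of the table, on GRCm38. Apoa1, Apoc3, Apoa4 and Apoa5 lie in one cluster on chromosome 9 between 46228580 and 46271919. Apoc2, Apoc1 and Apoe lie in a second cluster on chromosome 7 between 19671579 and 19699166. Apoa2 is on chromosome 1 (171225054 to 171226379), Apob on chromosome 12 (7977648 to 8016835) and Mttp on the minus strand of chromosome 3 (138089855 to 138143388). The gene model of Apoc2 spans that of Apoc4 on the same strand, and Apoc4 was at 699 to 1233 FPKM, so the level of Apoc2 is uncertain. Apoc2 was also the only one of the 10 to share 31-base stretches with another gene model, the read-through model Gm44805. Of the 783 such stretches in Apoc2, 617 were shared. Apoa4 overlaps the antisense gene Gm10680, which was at 0 to 0.063 FPKM.

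The 250 bases upstream of the start site are shown for 4 genes because they carry the main contrasts of the report: Mttp, Apoa2 and Apoa5 were lower on CDAHFD in both genotypes, and Apob, the protein partner of Mttp, was called in neither. The sequences are from RefSeq (GRCm38.p6), read 5′ to 3′ on the strand of the gene. Capitals mark matches on either strand to TATAAA (a sequence of the TATA box type) or to TGACGT (the core sequence of a cAMP response element). These are matches of sequence only, and whether they act as such elements was not tested.
Mttp: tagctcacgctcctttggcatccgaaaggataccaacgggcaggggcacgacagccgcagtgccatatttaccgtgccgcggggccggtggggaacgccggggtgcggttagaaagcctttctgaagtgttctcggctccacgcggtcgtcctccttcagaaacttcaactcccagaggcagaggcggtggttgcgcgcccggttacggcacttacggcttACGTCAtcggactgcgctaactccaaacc
Apoa2: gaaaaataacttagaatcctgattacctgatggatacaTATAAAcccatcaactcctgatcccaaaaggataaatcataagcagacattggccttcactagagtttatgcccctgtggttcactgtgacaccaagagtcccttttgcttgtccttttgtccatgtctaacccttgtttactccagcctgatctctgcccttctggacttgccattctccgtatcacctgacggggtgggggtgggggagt
Apoa5: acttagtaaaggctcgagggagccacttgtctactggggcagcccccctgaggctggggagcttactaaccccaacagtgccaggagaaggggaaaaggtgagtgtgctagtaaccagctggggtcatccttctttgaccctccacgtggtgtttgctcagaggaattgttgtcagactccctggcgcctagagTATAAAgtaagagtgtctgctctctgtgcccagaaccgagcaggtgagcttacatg
Apob: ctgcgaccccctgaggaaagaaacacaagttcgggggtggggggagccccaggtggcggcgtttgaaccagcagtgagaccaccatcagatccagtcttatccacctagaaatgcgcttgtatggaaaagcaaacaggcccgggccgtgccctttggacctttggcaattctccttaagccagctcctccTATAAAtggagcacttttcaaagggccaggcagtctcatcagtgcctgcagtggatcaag
These windows are chr3:138143419-138143668 (minus strand), chr1:171224804-171225053, chr9:46268383-46268632 and chr12:7977427-7977676 (plus strand). The capitals in Mttp are the reverse complement of TGACGT, at positions -29 to -24 counted from the start site. TATAAA began at position -56 in Apoa5 and -60 in Apob, but at -212 in Apoa2.

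RefSeq windows, which also take in the first 50 transcribed bases, were found for 8 of the 10 genes, not for Apoc1 and Apoc3. TATAAA was present in 3 of the 8, against 13.6% of all 32817 mouse windows, and TGACGT in 1 of 8, against 7.51%. Both AGGTCA, the core of nuclear receptor sites, and GTTAAT, part of an HNF1 site, were present only in Apoc2 (16.3% and 7.1% of all windows), whose RefSeq start lies 3482 bases from the start of its model in the table. CAAAGTCCA, a sequence of the HNF4A type, was in none of the 8 and in 0.475% of all windows. Both strands were searched and no 2 matches in a gene overlapped.

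In control livers the 10 genes spanned a wide range of level per length. Apoa2 (13475 ± 1406 FPKM, SD, n = 5) and Apoe (13413 ± 1612) were highest in NDWT, and their ranges overlapped. Apoa1 (6936 ± 582), Apoc1 (3746 ± 335) and Apoc3 (1525 ± 195) followed, each separate from its neighbours in the order. Apoa5 (795 ± 157), Apoa4 (629 ± 319) and Apob (583 ± 89.5) each overlapped the next. Apoc2 (337 ± 50.7) and Mttp (115 ± 5.56) were lowest, Mttp standing clear of the rest. Among all genes Apoa2 and Apoe ranked 3 and 4 in NDWT, whereas Mttp ranked 476.

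**Figure D1:**
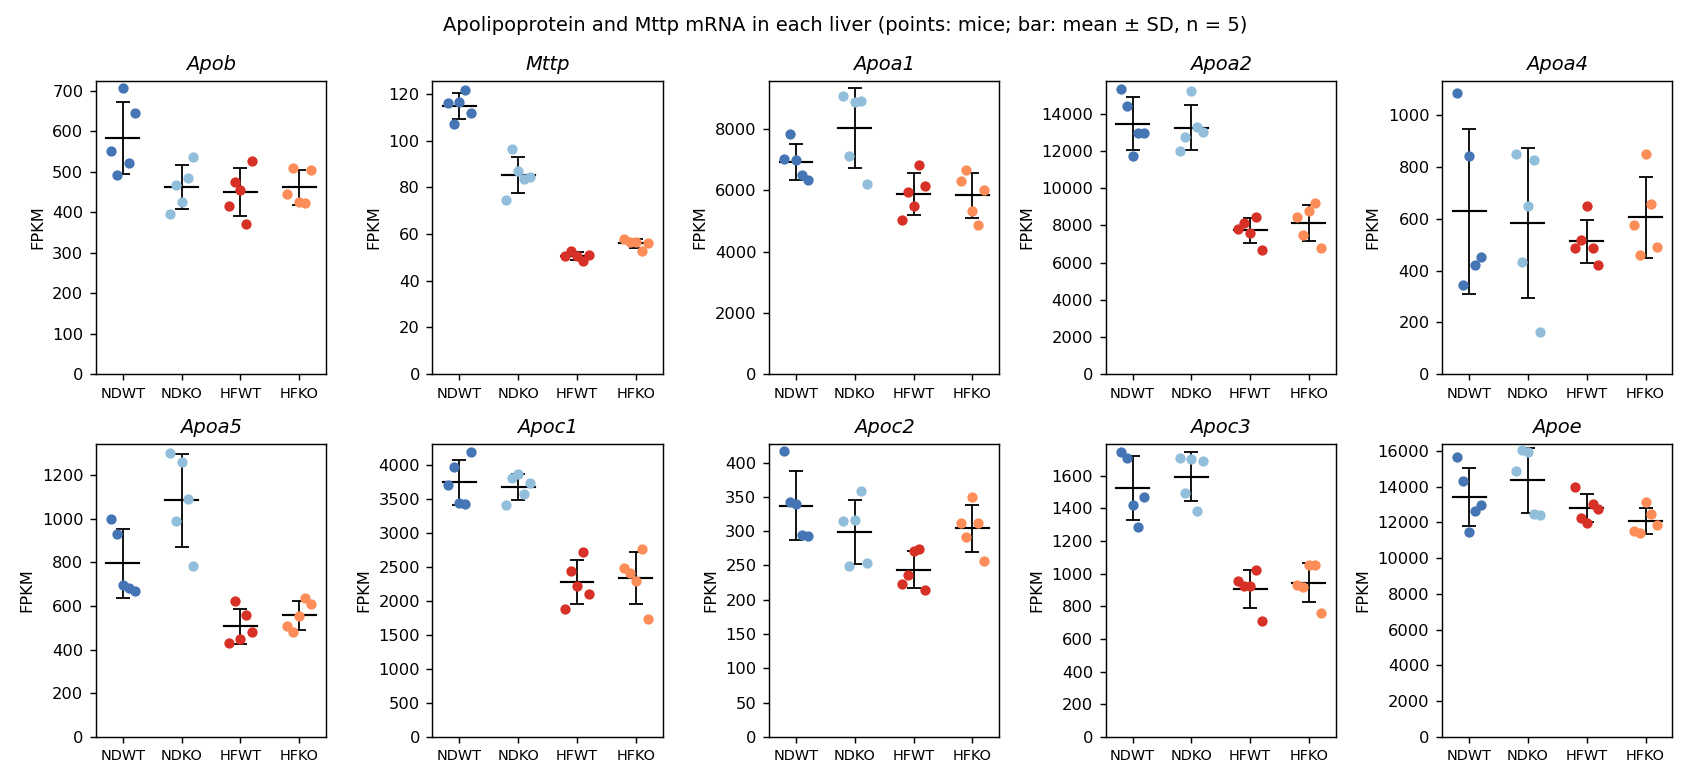
Level of the 10 genes in each liver, in FPKM on axes that start at 0, with 1 point per mouse and the mean ± SD of the 5 mice in each group (NDWT and NDKO on control chow, HFWT and HFKO on CDAHFD). Mttp, Apoa2, Apoa5, Apoc1 and Apoc3 were lower in the CDAHFD groups without overlap, Mttp was lower in NDKO than in NDWT, and Apoa4 was scattered from 161 to 1086 FPKM on control chow.

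CDAHFD was compared with control diet in each genotype. In WT mice 5 of the 10 genes were called lower and 0 higher, where a call needed a limma FDR under 0.05 over all tested genes and an absolute log2 fold change above 0.58. Of all tested genes, 48.8% were called in that comparison, 4.62% lower and 44.1% higher. In the mice labelled TSP-1 null 5 of 10 were again called lower, against 4.00% of all genes (45.9% were called, 41.9% higher), and the 5 were the same genes. Groups did not overlap for 6 of 10 genes in WT (all lower, against 5.70% of all genes) and for 5 of 10 in null mice (all lower, against 5.03%). The median log2 fold change of the 10 was -0.55 in WT, beside 0.53 over all genes, and -0.53 in null mice, beside 0.50. All 10 lay below the median of all genes in both comparisons, at -1.71 to -0.59 log2 from it in WT and -1.44 to -0.26 log2 in null mice. The count depended on scaling: after median of ratios scaling, which sets the median gene near 0, 9 genes were called lower in WT and 7 in null mice, and after quantile normalization 2 in each, Mttp and Apoa2.

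Mttp, the lipid transfer protein of VLDL assembly, changed most of the 10 in WT mice. Its level was 116, 107, 117, 122 and 112 FPKM in the NDWT mice and 50.6, 52.7, 50.5, 48.3 and 51.0 FPKM in the HFWT mice. No HFWT liver reached the lowest control, and the mice within each group were close, with a coefficient of variation of 4.85% in NDWT and 3.13% in HFWT. The log2 fold change was -1.18 ± 0.0585 (SE; FDR 3.141e-12), a level 0.442 times that of controls. In the libraries labelled NDKO Mttp was at 74.6, 96.4, 86.8, 83.6 and 84.4 FPKM, and in those labelled HFKO at 57.9, 56.5, 56.4, 52.8 and 56.3 FPKM. These groups did not overlap either, and the log2 fold change was -0.60 ± 0.0585 (FDR 2.831e-08). That value sits close to the called fold: it was -0.55 without NDKO 2 and -0.58 without HFKO 4, where the FDR held and the fold did not.

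Apob encodes the structural protein of VLDL. It was at 550, 492, 707, 522 and 644 FPKM in NDWT and 416, 474, 455, 371 and 527 FPKM in HFWT. The groups overlapped, and the difference of -0.37 ± 0.111 log2 passed the FDR (0.005186) but not the fold. After median of ratios scaling it was -0.94 log2 and called (FDR 1.013e-06), and after quantile normalization -0.16. In NDKO Apob was already at 396, 467, 424, 484 and 537 FPKM, and HFKO livers had 444, 509, 426, 422 and 505 FPKM. Here the log2 fold change was 0.0022 (95% interval -0.23 to 0.23), although after median of ratios scaling it was -0.53. The ratio of mean Apob to mean Mttp FPKM was 5.08 for NDWT and 8.86 for HFWT livers, and 5.42 for NDKO and 8.24 for HFKO livers.

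The main HDL apolipoproteins differed from each other. Apoa2 was at 15331, 14407, 11729, 12960 and 12946 FPKM in NDWT and at 7797, 8134, 7580, 8463 and 6685 FPKM in HFWT. No HFWT liver reached the lowest control, and the log2 fold change was -0.80 ± 0.108 (FDR 1.803e-06). In the null mice Apoa2 went from 13257 ± 1199 to 8130 ± 987 FPKM (-0.71 log2, FDR 8.446e-06). Apoa2 lost its call in both genotypes when no filter on low values was applied, with the same fold change (FDR 0.8672 and 0.9617). Apoa1, the principal HDL protein, was at 6936 ± 582 FPKM in NDWT and 5884 ± 681 in HFWT, which was not called (-0.24 log2, FDR 0.08281). It was at 8041 ± 1306 FPKM in NDKO and 5835 ± 725 in HFKO, where it passed the FDR (0.002547) but not the fold (-0.46). HFWT and NDWT ranges of Apoa1 overlapped, as did those of HFKO and NDKO. After median of ratios scaling Apoa1 was called lower in both genotypes, at -0.80 and -0.99 log2, whereas after quantile normalization it was at 0.14 log2 in WT and not called.

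Apoa5, a liver protein that promotes triglyceride clearance by lipoprotein lipase, was lower in both genotypes. NDWT livers had 1000, 930, 696, 684 and 668 FPKM and HFWT livers 430, 622, 448, 557 and 482 FPKM. The groups were separate by a small margin between 622 and 668 FPKM, with a log2 fold change of -0.64 ± 0.148 (FDR 0.0007097). The call rested on NDWT 1 and NDWT 2: without either, the log2 fold change was -0.55 or -0.58, under the called fold. In null mice Apoa5 was at 1300, 988, 1260, 1090 and 781 FPKM on control diet and 507, 482, 552, 636 and 611 FPKM on CDAHFD. This was the largest change of the 10 in null mice (-0.94 ± 0.148 log2, FDR 1.293e-05). Apoa4, which is regulated by feeding and fasting in liver and gut, varied too widely between mice to be compared in this way. It ranged from 346 to 1086 FPKM in NDWT and from 161 to 850 FPKM in NDKO, with a coefficient of variation of 50.8% and 49.6%. The log2 fold change with diet was -0.17 ± 0.374 in WT and 0.24 ± 0.374 in null mice, and neither differed beyond this spread (FDR 0.6986 and 0.5816).

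Among the Apoc genes, Apoc1 and Apoc3 were lower and Apoc2 was not called in either genotype. Apoc3, an inhibitor of lipoprotein lipase and of remnant clearance, was at 1744, 1707, 1419, 1288 and 1467 FPKM in NDWT. In HFWT it was at 957, 923, 926, 1022 and 709 FPKM, all below every control (-0.75 ± 0.114 log2, FDR 7.585e-06). In null mice it went from 1595 ± 150 to 944 ± 120.8 FPKM, a log2 fold change of -0.76 (FDR 6.925e-06). After quantile normalization these changes of Apoc3 were -0.09 and -0.0017, and the calls were lost. Apoc1, which inhibits lipoprotein uptake, was at 3702, 3971, 3438, 3427 and 4192 FPKM in NDWT and 1886, 2446, 2221, 2721 and 2102 FPKM in HFWT. Again the groups were separate (-0.73 ± 0.115 log2, FDR 1.287e-05), and in null mice the change was -0.67 (FDR 3.519e-05). Without HFKO 5, the lowest HFKO liver for Apoc1 at 1731 FPKM, the change in null mice was -0.57 and not called.

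Apoc2, the activator of lipoprotein lipase, was lower on CDAHFD in WT mice without reaching the called fold, and its value is uncertain because of the overlapping Apoc4 model. It was at 417, 342, 339, 294 and 293 FPKM in NDWT and 224, 236, 271, 274 and 214 FPKM in HFWT. These ranges did not overlap, and the change of -0.46 ± 0.117 log2 passed the FDR (0.001493) but not the fold. NDKO livers had 249 to 358 FPKM and HFKO livers 256 to 350 FPKM, so that the ranges overlapped (0.03 log2, FDR 0.8072, but -0.50 after median of ratios scaling). Apoc4 itself was not called in WT mice (-0.16 log2, FDR 0.1409). In null mice Apoc4 went from 1081 ± 147 to 757 ± 56.5 FPKM. That change of -0.51 log2 passed the FDR (9.633e-05) but not the fold.

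Apoe, a ligand of hepatic remnant receptors made by hepatocytes and macrophages, was called in neither genotype. It was at 11463 to 15653 FPKM in NDWT and 11972 to 14004 FPKM in HFWT, so that every HFWT liver lay within the control range (-0.06 ± 0.106 log2, 95% interval -0.28 to 0.16). In the null mice it was at 12395 to 16080 FPKM on control diet and 11404 to 13150 FPKM on CDAHFD (-0.24 ± 0.106 log2, 95% interval -0.46 to -0.0175, FDR 0.05011). Macrophage markers were higher beside it, with Cd68 at 8.95 to 13.5 FPKM in NDWT and 63.6 to 98.8 FPKM in HFWT, and Clec4f, a Kupffer cell marker, lower at 56.3 to 76.5 and 19.6 to 43.6 FPKM. Their part in the Apoe level was not tested. After median of ratios scaling Apoe was called lower in both genotypes, at -0.62 and -0.78 log2.

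**Figure D2:**
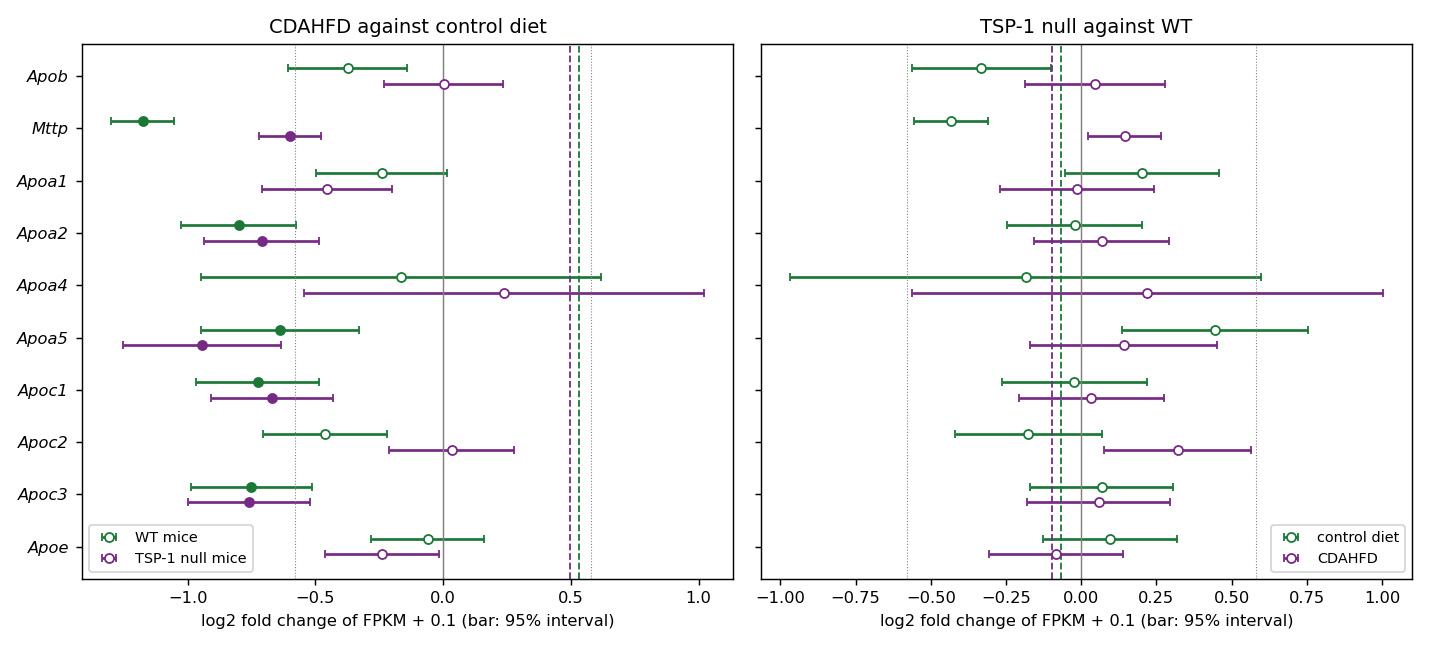
Log2 fold change of FPKM + 0.1 with its 95% interval, for CDAHFD against control diet (left, WT and TSP-1 null mice) and for null against WT mice (right, on each diet). Filled points were called, dotted lines mark the called fold of 0.58 and dashed lines the median of all tested genes; 5 genes were called lower with diet in each genotype, and none was called with genotype.

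Together the 10 genes took 5.80 ± 0.447% of all assigned fragments in NDWT (n = 5) and 5.99 ± 0.460% in NDKO. On CDAHFD they took 4.78 ± 0.124% in HFWT and 4.72 ± 0.115% in HFKO, 1.02 and 1.28 points less, and every CDAHFD library (at most 4.92%) lay below every control library (at least 5.33%). Apoe made up the largest part, 2.66% of fragments in NDWT and 2.53% in HFWT, and 2.84% in NDKO and 2.39% in HFKO. Apoa2 went from 0.724 to 0.415% in WT and from 0.712 to 0.437% in null mice. Apob went from 0.812 to 0.625% in WT mice and was at 0.643% in both NDKO and HFKO. The spread between mice was smaller on CDAHFD, with SDs of 0.115 and 0.124 points against 0.447 and 0.460. These shares are a description without a test.

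**Figure D3:**
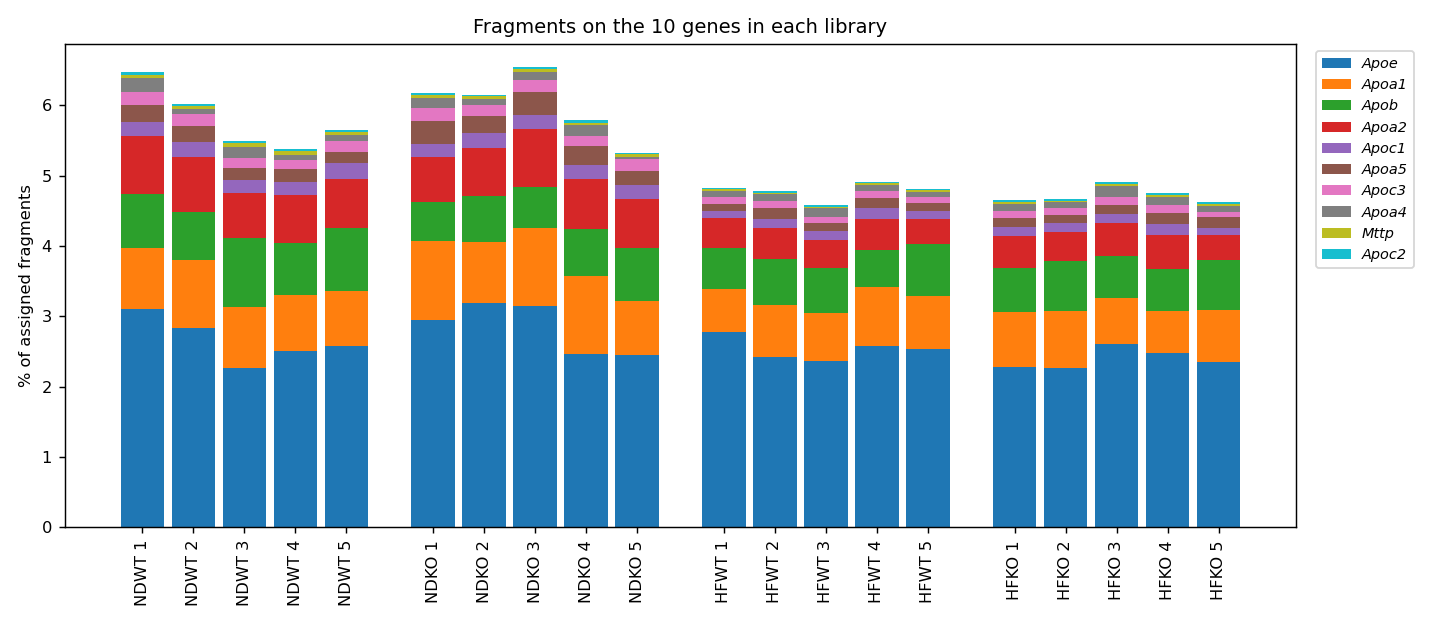
Percent of assigned fragments on each of the 10 genes in each of the 20 libraries, stacked from Apoe at the base. Control libraries reach 5.33 to 6.54% and CDAHFD libraries 4.58 to 4.92%, with Apoe the largest part in every library.

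Genotype was compared on each diet. On control diet limma called 0 of the 10 genes, beside 4.77% of all tested genes, and 3 of the 10 had an unadjusted p under 0.05. Mttp was the only one to pass the FDR. Every library labelled NDKO (74.6 to 96.4 FPKM) lay below every NDWT library (107 to 122 FPKM), a log2 fold change of -0.43 ± 0.0585 (FDR 0.0001335) and a level 0.741 times that of WT, which is under the called fold. Groups were separate and lower for 1 of the 10 genes, against 6.69% of all genes. The other genes with p under 0.05 were Apoa5 (0.44 log2, FDR 0.05364), at 668 to 1000 FPKM in NDWT and 781 to 1300 in NDKO, and Apob (-0.33 log2, FDR 0.05486), both with overlapping groups. For Apoa2, Apoc1, Apoc3 and Apoe the log2 differences were between -0.02 and 0.10, with intervals that reached no further than -0.26 and 0.32.

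On CDAHFD limma again called 0 of the 10, beside 0.496% of all genes, with 2 at an unadjusted p under 0.05. Mttp stood in the opposite order from the control diet: all libraries labelled HFKO (52.8 to 57.9 FPKM) were above all HFWT libraries (48.3 to 52.7 FPKM), which held for 1 of the 10 genes and 0.847% of all genes. The margin was narrow, and the difference of 0.14 ± 0.0585 log2 (95% interval 0.02 to 0.27) did not pass the FDR (0.2132). Apoc2 was at 214 to 274 FPKM in HFWT and 256 to 350 FPKM in HFKO (0.32 ± 0.117 log2, FDR 0.1684). The remaining 8 genes differed by -0.08 to 0.22 log2 between these groups, and all overlapped.

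The interaction asks whether the genotype difference on CDAHFD was the same as on control diet. For Mttp it was not: the difference between the log2 fold changes was 0.58 (0.5765) ± 0.0827 (95% interval 0.40 to 0.75, FDR 0.005511). Expressed by diet, CDAHFD lowered Mttp by 1.18 log2 in WT mice and by 0.60 in null mice, from control levels of 115 ± 5.56 and 85.2 ± 7.82 FPKM to 50.6 ± 1.59 and 56.0 ± 1.90 FPKM. The value was just short of the called fold, so 0 of 10 genes were called for the interaction, beside 0.647% of all genes, with 3 at an unadjusted p under 0.05. Those 3 were Mttp, Apoc2 (0.50 ± 0.165, FDR 0.1537) and Apob (0.38 ± 0.157, FDR 0.2555), each positive, that is, lower by less or not lower in the null mice. The value of Apoc2 carries the uncertainty of its gene model. Differences in the diet response of Apoa2, Apoc1 and Apoc3 were between -0.01 and 0.09 log2, with 95% intervals that ran from -0.35 to 0.41.

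Within groups, after the group means were taken off, some of the 10 genes varied together between mice. Over the 20 livers Apoa2 and Apoc3 correlated with Pearson's r = 0.75 and Spearman's rho = 0.77 (permutation p = 0.00094 and 0.00082, adjusted over 45 pairs 0.0234 and 0.0184). Without the 2 livers farthest from the median for Apoa2, r was 0.71. Apoa4 and Apoc2, on different chromosomes, correlated with r = 0.73 and rho = 0.76 (permutation p = 0.00104 and 0.00056, adjusted 0.0234 and 0.0184), and r was 0.68 without the 2 livers farthest for Apoa4. No other pair passed the adjustment, and the level of Apoc2 is uncertain because of its gene model, as given above. Apob had a negative r with 8 of the 9 other genes, the largest with Apoa2 (r = -0.62, rho = -0.58, permutation p = 0.00724 and 0.0146, adjusted 0.0814 and 0.109, r = -0.60 without the 2 farthest livers). Mttp was the exception, with r = 0.35 and rho = 0.25 (permutation p = 0.164 and 0.331, adjusted 0.352 and 0.596, r = 0.37 without the 2 farthest). FPKM shares of one library are not independent of each other, and groups of 5 livers are too small for a correlation within each.

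**Figure D4:**
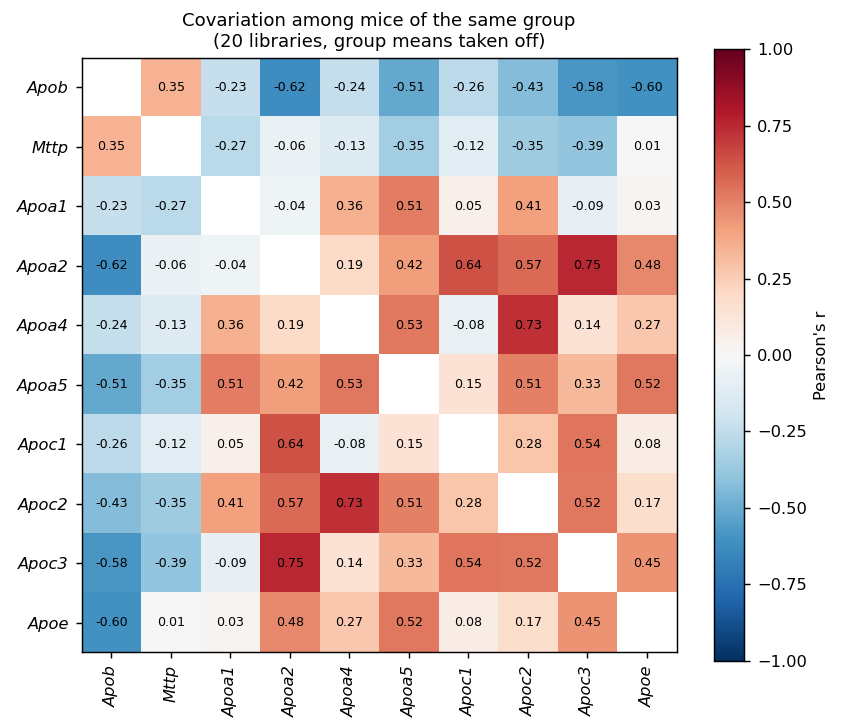
Pearson's r between the 10 genes over 20 livers, on log2(FPKM + 0.1) with group means taken off, from blue (negative) to red (positive). Apoa2 with Apoc3 (0.75) and Apoa4 with Apoc2 (0.73) are highest, and the row of Apob is negative except with Mttp (0.35).

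The tested genes most like Mttp over all 20 libraries by Pearson's r were Acsl5 (0.98), Mmd (0.97), Cyp2j5 (0.97), Ces1f (0.97) and Tgoln1 (0.96). Those most like Apoe, the gene with the smallest diet change in WT mice, were Slc25a29 (0.88), Rilp (0.85), Cltb (0.85), Clpp (0.84) and Proc (0.82). These are descriptions without a test, and for Mttp the likeness follows the differences between groups.

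The surrounding pathway was read from lists of genes by role, 90 tested genes in all. In WT mice 21.1% of them were called higher on CDAHFD and 14.4% lower, beside 44.1% and 4.62% of all tested genes, and in null mice 23.3% higher and 6.67% lower, beside 41.9% and 4.00%. The share called higher was under that of all genes in every list but the receptor and uptake genes in WT, and in every list but those, the lipases and the editing genes in null mice. The counts called lower in null mice for VLDL assembly and for the transcriptional regulators were near the share of all genes. Of 22 genes for VLDL assembly and secretion other than the 10, 2 were called higher and 4 lower on CDAHFD in WT mice and 1 higher and 1 lower in null mice, with a median log2 fold change of -0.04 and 0.06 beside 0.53 and 0.50 over all genes. Ces1d, a triglyceride hydrolase that mobilises lipid for VLDL, went from 256 ± 29.5 to 72.3 ± 19.6 FPKM in WT (-1.86 log2) and fell by 1.47 log2 in null mice. Sort1, which sorts Apob in the secretory pathway, rose from 1.97 ± 0.574 to 8.48 ± 0.645 FPKM in WT (2.09 log2) and by 2.14 in null mice. Sar1b, the GTPase of the vesicles that carry nascent lipoprotein, fell from 152 ± 8.30 to 91.7 ± 10.5 FPKM in WT (-0.74 log2). Tango2 was called higher in WT at 0.66 log2, but was at 0.11 and 0.04 log2 after median of ratios scaling and quantile normalization and not called.

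Editing of the Apob transcript makes the short apolipoprotein B48. Apobec1, the editing deaminase, rose from 8.58 ± 1.71 to 31.2 ± 3.09 FPKM in WT (1.86 log2, FDR 1.854e-10) and by 1.61 log2 in null mice. A1cf, its cofactor, fell from 64.9 ± 6.12 to 30.6 ± 1.87 FPKM in WT (-1.08 log2). In null mice it went from 45.0 ± 5.83 to 30.0 ± 3.27 FPKM, and the log2 fold change of -0.5793 passed the FDR (1.784e-05) and just missed the fold. Of the 4 genes of this list, 1 was called higher and 1 lower in WT, and 2 higher in null mice. Syncrip, called higher in null mice at 0.60 log2, was at 0.08 and -0.01 after median of ratios scaling and quantile normalization.

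Of 9 lipases and their regulators, 2 were called higher and 3 lower in WT, and 4 higher and 2 lower in null mice. Lpl, lipoprotein lipase, rose from 3.39 ± 0.789 to 68.2 ± 8.13 FPKM in WT (4.31 log2, FDR 9.007e-13) and by 3.73 log2 in null mice. Pla2g7, a lipoprotein-associated phospholipase, rose from 1.17 ± 0.333 to 13.3 ± 1.74 FPKM (3.44 log2) and by 2.96. Lipc, hepatic lipase, fell by 0.65 log2 in WT and 0.95 in null mice, and Angptl4, an inhibitor of lipoprotein lipase, by 0.86 and 0.83. Lpl and Pla2g7 are also made by macrophages, whose markers were higher in the same livers, and their part was not tested.

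Of 8 tested genes for HDL formation and remodelling, 1 was called higher and 2 lower in WT, and 2 higher in null mice. Lcat, which esterifies cholesterol on HDL with Apoa1 as its activator, fell from 355 ± 23.6 to 206 ± 25.3 FPKM in WT (-0.79 log2). Pcolce2 fell by 1.25 log2 from a low level of 0.795 ± 0.121 FPKM. Abcg1, a cholesterol exporter, rose by 1.89 log2 in WT and 1.72 in null mice. Pltp, the phospholipid transfer protein, was called higher in null mice (0.59 log2) but not after the other scalings, where it was at 0.06 and 0.28 log2.

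Of the receptor and uptake genes, 8 of 11 were called higher and 0 lower in WT, and 8 higher and 1 lower in null mice. The median log2 fold change was 0.79 and 1.02, beside 0.53 and 0.50 over all genes, and after median of ratios scaling 3 and 4 of the 8 remained called. Msr1, a scavenger receptor of macrophages, rose by 1.64 and 1.55 log2, and Cd36, a fatty acid and scavenger receptor, rose by 1.95 log2 in WT and 2.94 in null mice. Sdc1, the heparan sulfate proteoglycan of remnant uptake, was the gene called lower in null mice (-0.82 log2). Lrpap1 and Mylip, called higher in WT at 0.72 and 0.79 log2, were at 0.16 and 0.24 after median of ratios scaling and not called.

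Of 21 transcriptional regulators of lipoprotein genes, 4 were called higher and 2 lower in WT, and 3 higher and 1 lower in null mice. Creb3l3, a liver factor that activates Apoa4, Apoa5 and Apoc2, fell from 201 ± 17.9 to 113 ± 5.77 FPKM in WT (-0.83 log2). Ppara, the fatty acid receptor that controls several of these genes, fell by 1.22 log2 in WT and 0.65 in null mice. Srebf2 rose by 1.41 and 1.499 log2, and Srebf1 by 1.498 in WT and 1.24 in null mice. Nr0b2 rose by 1.44 log2 in null mice, and Nr1h2 was called higher in WT at 0.80 log2, but neither was called after median of ratios scaling (0.91 and 0.24 log2). After quantile normalization Nr0b2 was still called (1.15 log2, limma FDR 0.01887) and Nr1h2 was not (0.42 log2). Of 15 other tested apolipoprotein genes, 1 was called higher and 1 lower in each genotype. Apon was the lower one in both (-0.95 and -0.82 log2), and Clu in WT and Apol7a in null mice were each called higher at 0.66 log2, but at 0.10 and 0.13 after median of ratios scaling, where they were not called. After quantile normalization Clu was at 1.05 log2 and still called, and Apol7a was at 0.37 log2 and not called.

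**Figure D5:**
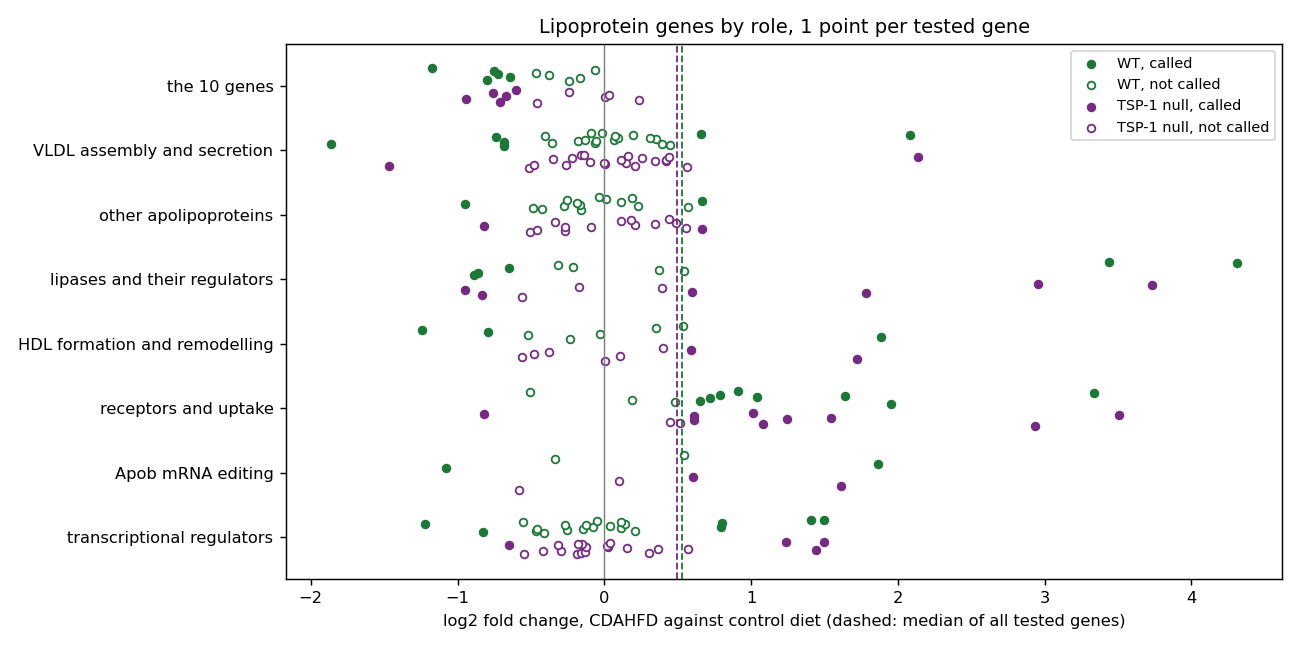
Log2 fold change of CDAHFD against control diet for each tested gene of the role lists, 1 point per gene, WT in green and TSP-1 null in purple, filled where called and with dashed lines at the median of all genes (0.53 and 0.50). The 10 genes lie at or below 0.24, whereas Lpl and Pla2g7 lie near or above 3.

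Between genotypes on control diet, 6 of the 90 genes of these lists were called (6.67%), beside 4.77% of all genes. Hspa5, an endoplasmic reticulum chaperone that binds Apob, was lower in NDKO at 190 ± 52.1 against 394 ± 149 FPKM (-1.04 log2, FDR 0.007492). Cd36 was lower at 12.0 ± 5.54 against 28.02 ± 11.7 FPKM (-1.21 log2), and Angptl8, listed under its older symbol Gm6484, at 6.70 ± 2.67 against 17.5 ± 5.37 FPKM (-1.45 log2). Ppargc1a, a coactivator of fasting genes, was higher at 2.84 ± 0.680 against 1.16 ± 0.504 FPKM (1.28 log2), as was Tango2 (0.60 log2). Saa4, an HDL apolipoprotein of the serum amyloid family, was lower (-0.61 log2) but was at -0.53 and not called after median of ratios scaling. Between genotypes on CDAHFD, and for the interaction, limma called no gene of these lists.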

How the data were processed

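RNA was measured in 20 mouse livers, 5 per group, grouped by the sample labels. Per the labels and methods, the authors made poly(A) libraries with a directional kit, aligned reads with STAR 2.5.2, counted them with featureCounts (Subread 1.5.1) and deposited FPKM per gene. The submitters' notes name build GRCh38, but the coordinates of the table are mouse GRCm38. Whether counting used strand is not given in the sources used here. Fragment numbers were worked back out of FPKM with the length of each gene and the total of each library. A value above 0 was checked where the rounding of the file was worth under 0.25 fragments, and called whole where it lay within that rounding plus 0.02 of a whole number; no library had under 99.98% whole.

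On the deposited FPKM values, limma 3.58.1 in R 4.3.3 was fitted to log2(FPKM + 0.1) of the 14524 genes above 0.5 FPKM in at least 5 libraries, with 1 mean for each group over all 20 libraries and eBayes with trend. Fold changes are on this scale, the pseudocount of 0.1 being far below the levels of the 10 genes. Calls needed an absolute log2 fold change above 0.58 and an FDR (Benjamini-Hochberg, two-sided tests, all tested genes) under 0.05. The share of fragments was computed without a test. Correlations used 100000 permutations within groups. Sequences and motifs came from RefSeq windows.

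The 10 genes and the gene lists were chosen with earlier results of these data known. Named are all 10 genes, at most the 4 called genes of each role list with the lowest FDR per comparison, Thbs1, the 5 genes most like Mttp and Apoe, and genes that mark other cell types. Of the genes this rule names, 2 are not reported here. Alternatives were other pseudocounts, filters, scalings, no fold threshold, fits of the compared groups alone, eBayes with no trend or robust, blocking on replicate number, and leaving out 1 mouse at a time. Python 3.11.15 (numpy 2.4.6, pandas 2.3.3, matplotlib 3.10.9) was used for tables and figures.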

Additional observations from a re-analysis of the deposited data

Results flagged for a closer look

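The response of Mttp to CDAHFD differed between the genotypes as labelled, by a limma test of the difference itself. The interaction was 0.5765 on the log2 scale (FDR 0.005511), with the diet difference at -1.18 in WT mice and -0.60 in mice labelled TSP-1 null. The FDR was under 0.05 in all 31 alternatives run. Thbs1 was higher in the control diet libraries labelled NDKO than in NDWT, and this gene-level value does not check the deletion. The size and the direction of the Mttp difference both rest on the labels. Among the 40 sets of 5 values (10 genes in 4 groups), no liver stood apart from the others by Dixon's criterion.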

How the results depend on the processing

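Of 590 values of single genes recomputed under other pseudocounts, filters, scalings, models and thresholds, 556 kept their direction and their side of the threshold. Scaling mattered most. After median of ratios scaling the count of the 10 genes called rose from 5 to 9 for diet in WT mice. For the interaction it rose from 0 to 1 (Mttp). The share of fragments on the 10 genes differed by -1.02 and -1.28 points with diet in WT and null mice. The same sum over the scaled values, which is no longer a share of fragments, differed by -2.99 and -3.38. After quantile normalization 2 genes were called for diet in each genotype. With no fold threshold 1 gene (Mttp) was called for genotype on control diet and 1 for the interaction. Leaving Apoe off, the share differed by -0.827 points in null mice. Directions that turned were all of values not called in either setting. Quantile normalization turned the WT diet values of Apoa1 (0.14), Apoa4 (0.089) and Apoe (0.087), that of Apoc3 for genotype on control diet (-0.063), that of Apoc1 on CDAHFD (-0.026) and the interaction of Apoc3 (0.090). Median of ratios scaling turned the null diet values of Apoa4 (-0.30), Apob (-0.53) and Apoc2 (-0.50), the genotype values of Apoa2 (0.054) and Apoc1 (0.053) on control diet and of Apoa1 (0.088) and Apoe (0.019) on CDAHFD, and the interaction of Apoc3 (0.016). The cause was not tested.

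Leaving out 1 mouse at a time, 553 of 600 values kept direction and side. The counts of called genes were 4 to 5 for diet in each genotype, 0 for genotype on each diet and 0 to 1 for the interaction, where Mttp passed the fold without NDWT 2, NDWT 5, NDKO 2, NDKO 3, HFWT 2 or HFKO 4 (0.53 to 0.62 over all mice). The share on the 10 genes differed by -1.13 to -0.851 points in WT and -1.44 to -1.14 points in null mice. Of the values that turned, 0 were called. For diet in WT, Apoa4 ran from -0.35 to 0.066. For diet in null mice, Apoa4 ran from -0.17 to 0.43, Apob from -0.051 to 0.059 and Apoc2 from -0.028 to 0.10. For genotype on control diet, Apoa2 ran from -0.073 to 0.026, Apoa4 from -0.37 to 0.23 and Apoc1 from -0.054 to 0.019. For genotype on CDAHFD, Apoa1 ran from -0.069 to 0.049, Apob from -0.020 to 0.11, Apoc1 from -0.031 to 0.14 and Apoc3 from -0.028 to 0.13. For the interaction, Apoa4 ran from -0.0050 to 0.59, Apoc1 from -0.0086 to 0.16 and Apoc3 from -0.097 to 0.065.

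The replicate numbers did not pair the mice: over 30 pairs of same-numbered libraries the correlation of deviations from the group means was between -0.13 and 0.08. With the replicate number as a block, 5 genes were called for diet in each genotype, 0 for genotype on each diet and 0 for the interaction, so that no count changed, and the interaction of Mttp was 0.58 (0.5765, limma FDR 0.01538). Depth hardly limits the 10 genes, which had at least 3454 fragments each in every library (the lowest value was that of Apoc2). This covers counting error only.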
